A study of Mus musculus with 5 samples.

Results

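Adventitial fibroblasts of the mouse lung were taken from single-cell RNA sequencing of unsorted lung cells as the barcodes in which at least 2 of the 3 markers Pi16, Dpt and Col14a1 were detected. Each also had at least 1 count of Col1a2, which encodes a chain of type I collagen, fewer than 5 counts of the smooth muscle actin gene Acta2, no count of the endothelial gene Pecam1, more than 700 and fewer than 8000 genes, and under 5% of counts from mitochondrial features. The rule chose 130 of 12707 retained barcodes, and these are called members below. Since the rule reads expression, the levels of Pi16, Dpt, Col14a1, Col1a2, Acta2 and Pecam1 describe the choice and are not findings.

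The libraries came from C57BL/6J mice exposed within 12 h of birth to air or to hyperoxia (over 95% O2) for 3 days and then kept in room air until postnatal day (pnd) 7 or 60. No other allele or agent is named in the labels. Each of the 4 conditions had 1 library, made with the 10x Genomics droplet system, and the number of mice behind each unsorted library was not given in the sources used here. With 1 library per condition no test across mice was possible. Intervals are 95% and cover counting error only. A difference between libraries cannot be told apart from a difference between conditions. The labels give no sex. The sex-linked transcript Xist was detected in 13, 3, 22 and 31 members and Ddx3y in 6, 3, 10 and 12 (air and hyperoxia at pnd7, then at pnd60). Xist was higher at pnd60 by 1.05 in air and 1.36 after hyperoxia on the log2 scale. The part of sex in the age comparisons was not tested. A further library, of cells from hyperoxia-exposed pnd7 lungs sorted on the senescence dye C12FDG and pooled from 3 mice, held 1 member among 493 barcodes and was not compared.

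Adventitial fibroblasts lie in the loose connective tissue cuff around airways and larger vessels, apart from the lipofibroblasts of the alveolar wall and from contractile myofibroblasts. They deposit fibrillar collagen and small proteoglycans, secrete complement components and growth factor modulators, and are a niche for lymphocytes and nerves. After birth, lung fibroblasts build the collagen and elastin scaffold on which alveoli form, and matrix synthesis slows as the lung matures.

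The members numbered 26 in air at pnd7, 8 after hyperoxia at pnd7, 40 in air at pnd60 and 56 after hyperoxia at pnd60. As shares of retained barcodes these were 1.13% (0.737 to 1.65, exact Clopper-Pearson interval), 0.642% (0.278 to 1.26), 0.91% (0.651 to 1.24) and 1.18% (0.891 to 1.53). These intervals overlapped, and a difference in share was not tested, with 1 library per condition. The members held 232789, 138295, 257246 and 321182 counts in that order, with medians of 6523, 17949.5, 5462.5 and 4520 counts per member. Depth entered the share, because a deeper barcode has more chances to show a marker: when every barcode was thinned to 1000 counts before the rule, the shares were 0.738%, 0.241%, 0.413% and 0.701%. No barcode sequence was shared between the members of any pair of libraries.

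The 3 markers did not carry the rule equally. Col14a1, a collagen of the fibril surface, was detected in 24 of 26, 8 of 8, 40 of 40 and 56 of 56 members, and Dpt, dermatopontin of the extracellular matrix, in 25, 7, 38 and 55. Pi16, a peptidase inhibitor regarded as the mark of universal fibroblasts, was found in 7, 3, 15 and 22 of them. All 3 were detected in 4, 2, 13 and 21 members, so most members passed on Dpt and Col14a1 alone. Barcodes just outside the rule, with 1 of the 3 markers, numbered 269, 78, 186 and 177, and their summed level of Dcn was 110, 68.3, 203 and 143 CPM (counts per 1000000 counts of the summed cells). Members just inside, with 2 markers, had 2006, 2188, 1308 and 2410 CPM of Dcn, and those with 3 had 5831, 3200, 9353 and 10582 CPM.

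Those Dcn values showed that the label held for only some of the members. Dcn encodes decorin, the small leucine-rich proteoglycan that coats collagen fibrils and is a defining transcript of adventitial fibroblasts, and it was not used by the rule. It had 0 counts in 12 of 26, 4 of 8, 14 of 40 and 13 of 56 members. At a level of 1000 CPM, a boundary chosen after the values were seen, the members fell into 11, 4, 17 and 34 with more Dcn and 15, 4, 23 and 22 with less, or 66 and 64 in all. Dcn is a range and not a type, but few cells lay near the boundary: 3, 1, 5 and 3 members had 500 to 2000 CPM. The members are therefore referred to as Col14a1/Dpt fibroblasts, and the groups as Dcn-high and Dcn-low. This name follows the rule and does not establish the identity of every member. In air at pnd7, some Dcn-low members had only 1 to 3 Col1a2 counts. Hemoglobin, surfactant and secretoglobin genes gave 14.8% to 26.7% of their counts. After hyperoxia at pnd7, 1 member had 64 counts of the mesothelial gene Msln and no Dpt count.

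**Figure D1:**
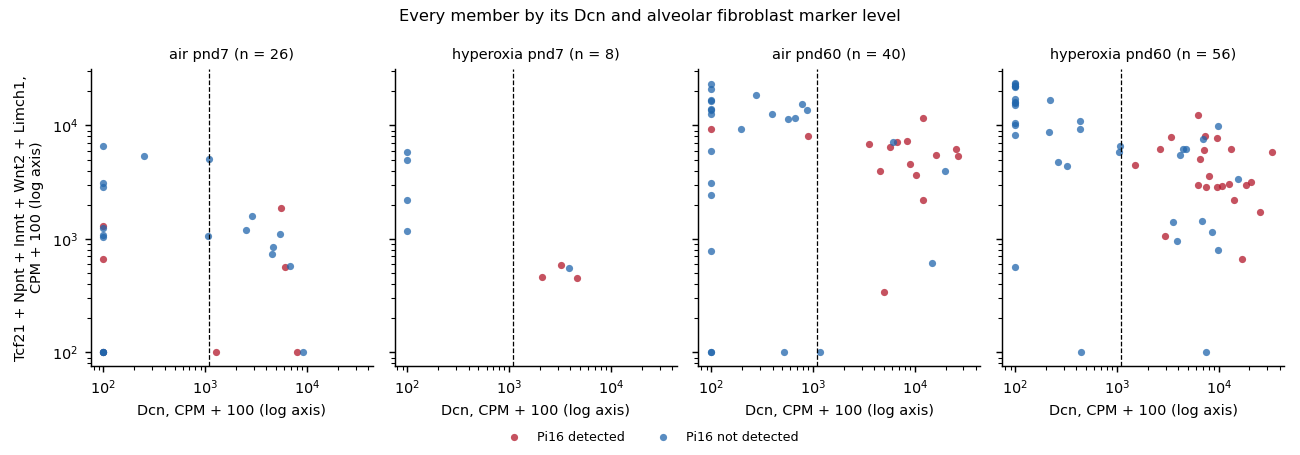
Each point is 1 member, placed by its Dcn level (x axis, CPM plus 100, log scale) and its summed level of Tcf21, Npnt, Inmt, Wnt2 and Limch1 (y axis, CPM plus 100, log scale), with 1 panel per library (n = 26, 8, 40 and 56); colour shows whether Pi16 was detected, and the dashed line marks 1000 CPM of Dcn. Members with Pi16 lie mainly to the right of the line, and those to its left include 12, 4, 14 and 13 members with no Dcn count.

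Dcn-high members had more of Serpinf1 and, less firmly after hyperoxia at pnd7, of Clec3b, markers of adventitial fibroblasts that the rule did not use. Serpinf1, the secreted anti-angiogenic factor PEDF, was at 1271 CPM in Dcn-high against 38 CPM in Dcn-low members in air at pnd7, 932 against 31.2 after hyperoxia at pnd7, 896 against 23 in air at pnd60 and 517 against 6.89 after hyperoxia at pnd60. Clec3b, tetranectin, was at 1302 against 399, 715 against 499, 3335 against 835 and 2142 against 730 CPM. After hyperoxia at pnd7, 44 of the Dcn-high Clec3b counts came from 1 member with mesothelial transcripts, described below. The other Dcn-high members there held 8, 3 and 21, so the order in that library rested on that 1 member. Pi16, which belongs to the rule, was detected in 42 of the 66 Dcn-high and in 5 of the 64 Dcn-low members. This describes the choice, since a member without Pi16 had to hold both Dpt and Col14a1.

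Dcn-low members instead had higher levels of some alveolar fibroblast transcripts. Npnt, nephronectin, an integrin ligand of the alveolar wall, was at 722, 1621, 2068 and 2555 CPM in Dcn-low members and at 47.1, 94.1, 311 and 170 CPM in Dcn-high members. In air at pnd7 this was uneven: the highest Dcn-low members had 32, 16 and 11 Npnt counts, and the second had 998 CPM of Dcn. In lipofibroblast-like cells, defined by 2 or more of Tcf21, Npnt, Inmt and Wnt2 with the same limits on Col1a2, Acta2 and Pecam1 (210, 80, 260 and 288 cells, none of them a member), Npnt was higher still, at 1850, 1730, 4789 and 4980 CPM. Most members, 95 of 130 (73.1%), also had 2 or more of those markers: 52 of 64 Dcn-low and 43 of 66 Dcn-high. After hyperoxia at pnd7 these were 4 of 4 in each group. The sets were therefore separate only because members were left out of the lipofibroblast-like cells. Serpine2, protease nexin 1, followed the same order, at 703, 842, 380 and 482 CPM in Dcn-low and 54.9, 9.41, 59.8 and 96.6 CPM in Dcn-high members, with 900, 916, 443 and 601 CPM in lipofibroblast-like cells. Col14a1 in Dcn-low members was at 304, 187, 219 and 379 CPM, under that of Dcn-high members (2761, 2203, 1195 and 1068 CPM) in every library. Dpt was also lower in Dcn-low members (598, 748, 1181 and 1426 CPM) than in Dcn-high members (1835, 1120, 1865 and 2319 CPM), and it was at 1004, 1156, 508 and 457 CPM in lipofibroblast-like cells. Both genes belong to the rule.

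Over the 3 libraries with 10 or more members, 12 of 510 genes (2.35%) were past 2-fold higher in Dcn-high than in Dcn-low members in every library, and 4 of 510 (0.784%) were past 2-fold lower. The genes counted here, as elsewhere, had at least 50 counts over the groups compared and were detected in at least 10 members. The 12 were Dcn, Serpinf1, Clec3b and Col14a1 together with Aebp1, which binds collagen, the surface sialomucin Cd34, Fndc1, the scaffold protein gene Akap12, the heme protein gene Cygb (cytoglobin), the glypican Gpc3 and the insulin-like growth factor binding proteins Igfbp4 and Igfbp5. The place of Dcn among them was fixed by the split, and Col14a1 belongs to the rule. The 4 were Npnt, Serpine2, Gyg and Limch1. None of the 4 fibrillar collagen genes measured besides Col1a2 was past 2-fold in all 3 libraries (median log2 ratio 0.95). Col1a1 was at 52569 against 7702, 29616 against 5114, 6144 against 3410 and 7296 against 3581 CPM in Dcn-high and Dcn-low members.

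**Figure D2:**
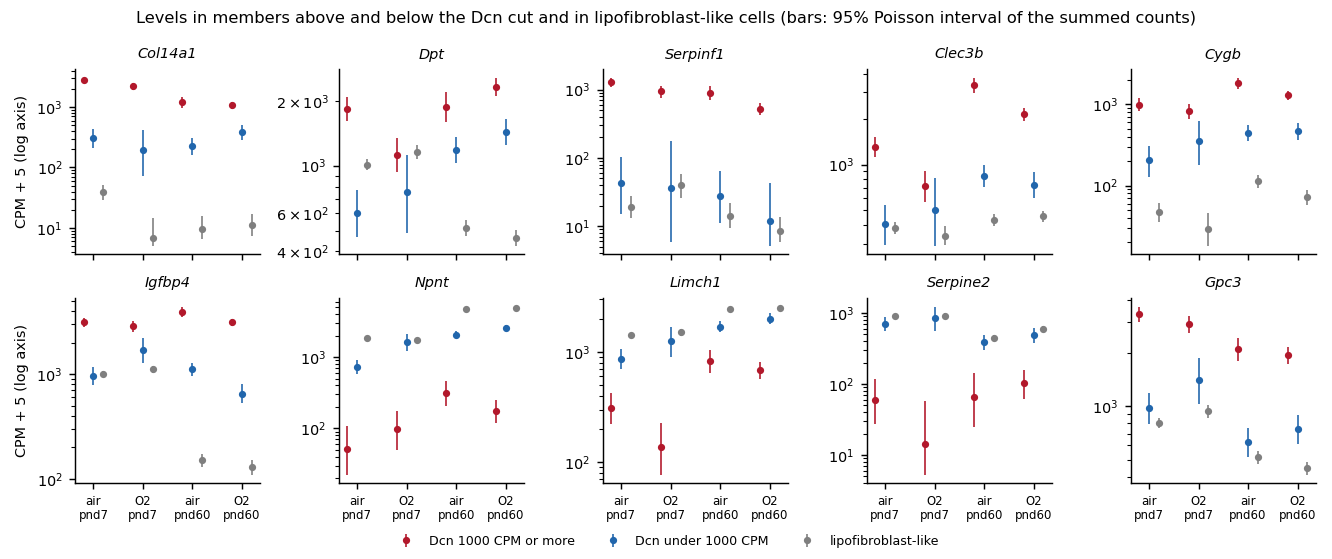
Levels of 10 genes (y axes, CPM plus 5 on a log scale, with 95% exact Poisson intervals) in Dcn-high members, Dcn-low members and lipofibroblast-like cells of each library (x axis). Col14a1, Serpinf1, Clec3b and Cygb are highest in Dcn-high members of every library, and Npnt and Serpine2 are lowest there. The place of Clec3b after hyperoxia at pnd7 rests on 1 member with mesothelial transcripts.

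The members were also divided by Pi16, and as Pi16 belongs to the rule the outcome is a description and no repeat of the division by Dcn. Of 510 genes, 1 (0.196%), Dcn, was past 2-fold higher in members with Pi16 in all 3 libraries, and 4 (0.784%) were past 2-fold lower, namely Npnt, Serpine2, Tmem176b and Igfbp5. Igfbp5 thus went opposite ways in the 2 divisions, being higher in Dcn-high members and lower in members with Pi16. In air at pnd60, 1 member gave 68.7% of its counts in Dcn-high members. In the hyperoxia library at pnd7 it was higher with Pi16, at 1753 CPM with and 0 CPM without Pi16. Pi16 counts at pnd7 also occurred in cells that should lack it: 10.5% and 16.3% of leukocytes (2 or more Ptprc counts, no Col1a2 count) had a Pi16 count at pnd7 in air and after hyperoxia, against 2.8% and 5.34% at pnd60. The leukocytes' median depths of 6806.5 and 7748 counts at pnd7 and of 2330.5 and 2443 at pnd60 were set beside 11057 and 23908.5 counts in Dcn-high members at pnd7. In Dcn-high members Pi16 was found in 4 of 11 and 3 of 4 at pnd7 and in 13 of 17 and 22 of 34 at pnd60, at 118, 47.1, 1530 and 540 CPM, values that the rule in part fixed. Dcn and Col14a1 had low background shares: 0.255% to 1.26% of leukocytes for Dcn and 1.02% to 2.59% for Col14a1.

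Some members carried transcripts of other cells, and these bear on the comparisons that follow. In air at pnd7, 8 of 26 members had 5% or more of their counts from hemoglobin, surfactant and secretoglobin genes, and all 8 were Dcn-low. The summed level of 5 red blood cell genes was 16186 CPM in that library, led by Hbb-bs at 8896 CPM, against 1056, 73.9 and 31.1 CPM in the others. After hyperoxia at pnd7, 1 Dcn-high member with 36624 counts held 64 counts of the mesothelial gene Msln, 28 of Upk3b and 15 of the proliferation gene Top2a. That member supplied all 85 C3 counts and 112 of 119 Fbln2 counts of its library, and all 8 mesothelial markers were detected there (2524 CPM in sum) against 3, 2 and 2 of 8 in the other libraries (520, 727 and 635 CPM, nearly all Rarres2). After hyperoxia at pnd60, 1 member supplied 93.4% of the Sftpc counts, which came to 2270 CPM. In air at pnd60 all 22 Top2a counts were in 1 member.

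Leukocyte markers were present at low levels, with Ptprc detected in 2, 0, 5 and 9 members, and summed to 382, 7.23, 447 and 542 CPM. Of the endothelial markers, Cldn5 had no count and Tek was the most abundant, with the list summing to 125, 101, 89.4 and 153 CPM. Pericyte markers summed to 636, 340, 420 and 489 CPM. Scrublet called 5 members doublets, of which 4 were Dcn-low, 3 came from air at pnd60 and 2 from hyperoxia at pnd60. The part of these barcodes in each result was not tested beyond the values given below.

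Compared with lipofibroblast-like cells of the same library, Col14a1/Dpt fibroblasts were richer in fibrillar collagen transcripts. Of 2463 genes, 31 (1.26%) were past 2-fold higher in the members of all 4 libraries and 48 (1.95%) past 2-fold lower. Col1a1 stood at 32274, 23934, 4299 and 5617 CPM in members and 3213, 3404, 1806 and 1810 CPM in lipofibroblast-like cells. Col3a1, of type III collagen, gave 27471, 24686, 4960 and 7756 against 3052, 3614, 1997 and 2175 CPM. The excess of Col3a1 was 3.17 and 2.77 on the log2 scale at pnd7 and 1.31 and 1.83 at pnd60, so it was smaller in the adult libraries. Of the 5 fibrillar collagen genes measured, 4 (Col1a1, Col1a2, Col3a1 and Col5a1) were among the 31, and Col1a2 was part of the rule. Other matrix lists held few of the 31: 1 of 14 genes of collagen processing and crosslinking, 1 of 12 elastic fibre genes and none of 4 small leucine-rich proteoglycan and hyaluronan genes (medians 0.78, 0.72 and 0.88).

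The 31 also held 2 of 6 complement genes and 3 of 8 TGF-beta and BMP genes measured, beside 1.26% of all genes. With Dcn-high members alone, 2 of 6 complement genes were higher, beside 1.59% of all genes. Only 1 of 7 TGF-beta and BMP genes, Fstl1, was higher there (list median -0.45). Tgfb3 and Nbl1 were not among those higher. Cygb was at 627, 701, 879 and 906 CPM in members against 42.1, 24.1, 108 and 67.3 CPM. Cxcl12, the ligand of CXCR4, was at 249, 260, 280 and 302 CPM against 37.8, 31, 80.3 and 55.4 CPM. Its level in members therefore varied less between libraries than that of the collagens. The transcription factor gene Osr1, the secreted protease gene Htra1, the procollagen peptidase gene Adamts2, the growth factor gene Tgfb3, the complement protease gene C1s1 and the elastic fibre gene Fbln1 were also on the list. Igfbp4 differed by 1.10 and 1.23 at pnd7 and by 3.81 and 4.02 on the log2 scale at pnd60, because lipofibroblast-like cells had 1007 and 1104 CPM at pnd7 and 145 and 124 CPM at pnd60 while members kept 2152, 2589, 2033 and 2005 CPM.

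Of 18 adventitial markers, 6 were measured in this comparison (median 1.87). Only 2 of them, Serpinf1 and Igfbp4, were among the 31 genes higher in members. The 48 genes lower in members included 7 of 9 lipofibroblast markers measured, of which Npnt, Wnt2 and Tcf21 had defined the comparison cells. Those not used to define them were Slc7a10, an amino acid transporter (30.1, 21.7, 54.4 and 59.2 against 166, 167, 474 and 424 CPM), Scube2, the esterase gene Ces1d and the receptor gene Fgfr4. Sftpc, the surfactant protein C gene of type II cells, was also among the 48, at 14835, 8002, 9623 and 7849 CPM in lipofibroblast-like cells, which shows that the comparison cells held epithelial RNA too. Limited to Dcn-high members, the same comparison placed 36 of 2270 genes (1.59%) higher and 100 (4.41%) lower. Against Acta2-high cells (10 or more Acta2 counts, 245, 143, 11 and 13 cells), 35 of 1037 genes (3.38%) were higher in members, led by Dcn, Serpinf1, Clec3b and Abca8a, and 23 (2.22%) lower, led by the contractile genes Myh11, Acta2, Tagln and Des, of which Acta2 was fixed by the choice of both sets. Cells chosen by pericyte markers had 43590 CPM of Sftpc or more in every library and were not used.

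The largest differences among the members were between ages. In air, 482 of 1764 genes (27.3%) were past 2-fold between pnd60 and pnd7, 300 (17.0%) higher and 182 (10.3%) lower at pnd60. After hyperoxia, 616 of 1611 genes (38.2%) were past 2-fold, 382 (23.7%) higher and 234 (14.5%) lower. These comparisons share no library. Of 1482 genes measured in both, 190 were higher at pnd60 in each (72.8% of the 261 higher in air and 55.4% of the 343 higher after hyperoxia), 108 were lower in each (76.6% of 141 and 49.5% of 218), and 5 had opposite directions. In Dcn-high members alone, 116 of 603 genes (19.2%) were higher and 131 (21.7%) lower in air, and 203 of 850 (23.9%) and 154 (18.1%) after hyperoxia. The median over all genes tested was 0.08 and 0.14 on the log2 scale. Ribosomal protein genes were among the 108 lower in each. Examples, in air and after hyperoxia, were Rps20 (-1.69 and -1.79), Rplp0 (-1.58 and -1.92) and Rps7 (-1.71 and -2.02).

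**Figure D3:**
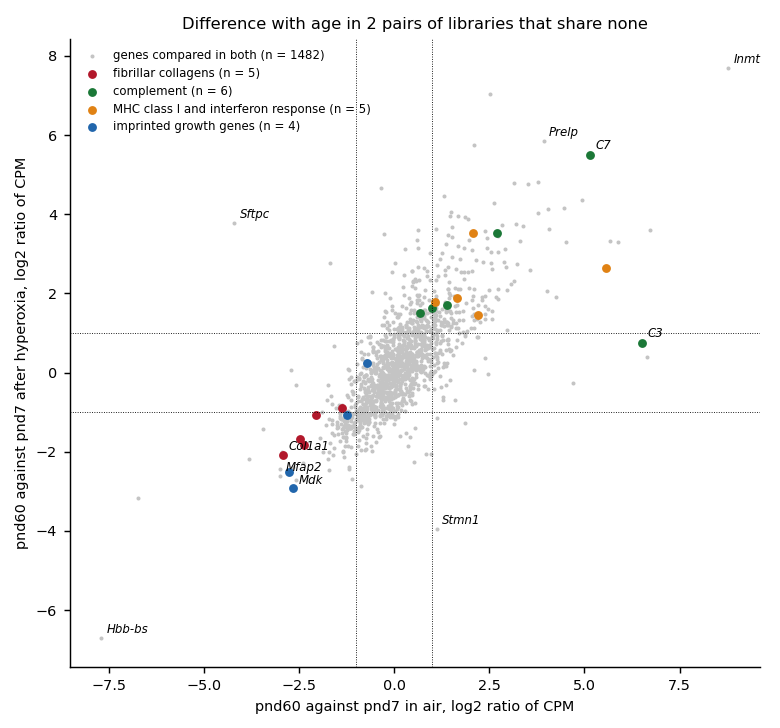
Log2 ratio of CPM at pnd60 to pnd7 in Col14a1/Dpt fibroblasts, in air (x axis) and after hyperoxia (y axis), for the 1482 genes measured in both; each point is 1 gene, dotted lines mark 2-fold, and colour marks 4 gene lists. The 190 genes higher at both sit top right, led by Inmt, and the 108 lower at both sit bottom left. The latter include Mfap2, Mdk, Col1a1 and ribosomal protein genes.

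Fibrillar collagen transcripts were lower at pnd60. Leaving out Col1a2, which belongs to the rule, the 4 measured genes summed to 62215 CPM in air and 50407 CPM after hyperoxia at pnd7, and to 10014 and 14279 CPM at pnd60. All 4 were past 2-fold lower in air (median log2 ratio -2.26, with 10.3% of all genes lower), and 3 of 4 after hyperoxia (median -1.37, with 14.5% of all genes lower), where Col5a2 was at 889 against 476 CPM. Col1a1 differed by -2.91 (-3.00 to -2.82) in air and -2.09 (-2.17 to -2.01) after hyperoxia. In Dcn-high members 4 and 3 genes were past 2-fold, with medians of -2.51 and -1.41, and Col1a1 differed by -3.10 and -2.02. Lipofibroblast-like cells had a smaller difference in Col1a1, -0.83 and -0.91, from 3213 and 3404 to 1806 and 1810 CPM. In all retained barcodes outside the members the difference in air was -2.72, near that of members.

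Genes that process or organise collagen were less uniform. Of 12 such genes measured, 1 was higher and 3 were lower in air, and 1 higher and 2 lower after hyperoxia, where 17.0% and 10.3% of all genes were higher and lower in air and 23.7% and 14.5% after hyperoxia. Sparc, a collagen chaperone, was at 13725, 15438, 3580 and 4913 CPM, and the collagen peptidase gene Bmp1 was lower with it in both. Pcolce2, an enhancer of procollagen cleavage, was the gene that was higher, at 309, 145, 1691 and 1532 CPM. Among elastic fibre genes, 4 of 14 were higher and 5 lower in air, and 2 of 14 higher and 4 lower after hyperoxia. After hyperoxia at pnd7, 112 of 119 Fbln2 counts and all 38 Efemp1 counts came from the member with mesothelial transcripts. Mfap2, a microfibril protein of growing elastic tissue, was at 992, 954, 124 and 156 CPM, a difference of -3.00 (-3.58 to -2.46) in air and -2.62 (-3.12 to -2.14) after hyperoxia. Elastin itself, Eln, was at 6676, 4028, 2010 and 3222 CPM, past 2-fold in air (-1.73) and not after hyperoxia (-0.32). Ltbp4, which anchors latent TGF-beta to elastic fibres, was at 1113, 983, 2500 and 2830 CPM, higher at pnd60 in both.

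**Figure D4:**
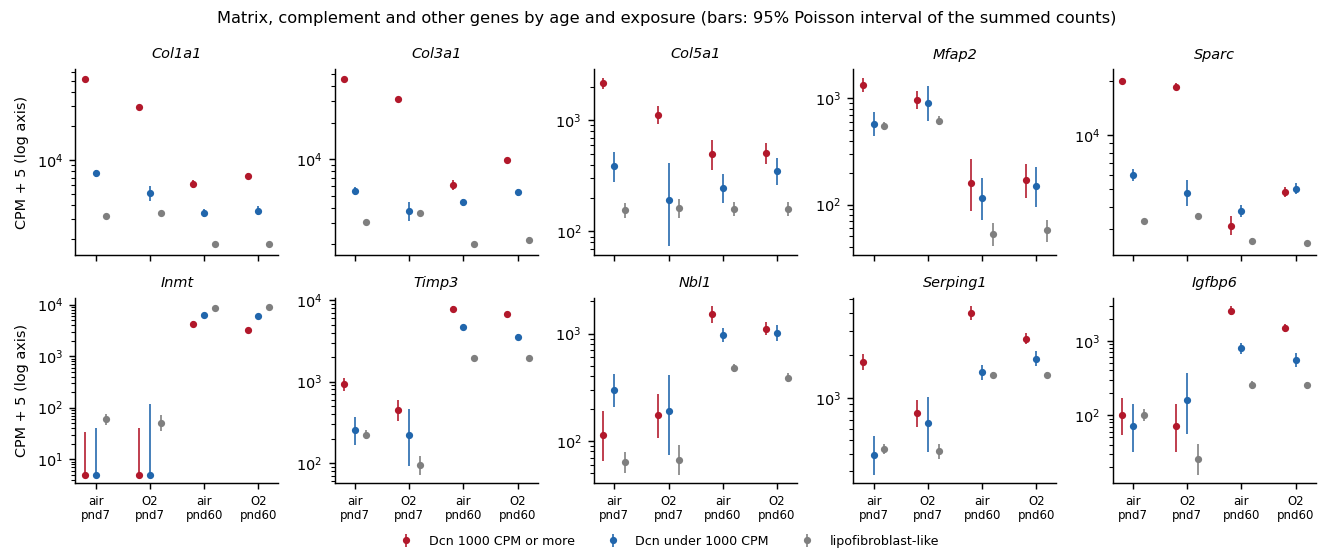
Levels of 10 genes (y axes, CPM plus 5 on a log scale, with 95% exact Poisson intervals) in Dcn-high members, Dcn-low members and lipofibroblast-like cells of the 4 libraries (x axis). Col1a1 and Mfap2 are lower at pnd60 in Dcn-high members, while Inmt and Timp3 are higher at pnd60 in all 3 sets.

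Small leucine-rich proteoglycan and hyaluronan genes went both ways: 3 of 8 were higher and 2 lower at pnd60 in air, and 5 of 9 higher and 3 lower after hyperoxia, beside 17.0% higher and 10.3% lower of all genes in air and 23.7% and 14.5% after hyperoxia. Fmod, fibromodulin, was among those higher in air (1.86) and among those lower after hyperoxia (-1.29), and 39 of its 42 counts after hyperoxia at pnd7 came from the member with mesothelial transcripts. Prelp, which links matrix to basement membrane, was at 94.5, 21.7, 1438 and 1245 CPM, higher by 3.93 (3.31 to 4.62) in air and 5.84 (4.29 to 8.13) after hyperoxia, the latter against 3 counts at pnd7. Dcn in Dcn-high members was at 5161, 3304, 10650 and 9342 CPM, although Dcn had chosen those members. Aspn, asporin, was lower, at 885, 448, 81.6 and 168 CPM, and 56.3% of its counts in air at pnd7 came from 1 member.

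Matrix turnover genes included 5 of 12 higher and 2 lower in air and 5 of 13 higher and 3 lower after hyperoxia, beside the same 17.0% and 10.3%, and 23.7% and 14.5%, of all genes. Timp3, the matrix-bound inhibitor of metalloproteinases, was at 614, 390, 5656 and 5284 CPM. The difference was 3.20 (2.95 to 3.46) and 3.76 (3.37 to 4.18), and it was of like size in Dcn-high members (3.08 and 3.93) and lipofibroblast-like cells (3.18 and 4.44). Mmp3, stromelysin, was detected in 2, 0, 8 and 18 members, at 12.9, 0, 175 and 548 CPM. Gelsolin, Gsn, and matrix Gla protein, Mgp, were at 3991, 2242, 26395 and 24553 CPM and at 3346, 3883, 25505 and 24787 CPM.

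Inmt, an indolethylamine methyltransferase of mature lung fibroblasts, showed the largest difference. It had no count in any member at pnd7 and was at 5664 CPM (36 of 40 members) in air and 4493 CPM (53 of 56) after hyperoxia at pnd60. Set against a floor of 3 counts in the pnd7 library (12.9 and 21.7 CPM), it was higher by at least 8.78 in air and at least 7.69 after hyperoxia on the log2 scale. Lipofibroblast-like cells had 54.4, 46.5, 8772 and 9109 CPM. Leukocytes at pnd60 had an Inmt count in 32.3% and 35.9% of cells, at 129 and 147 CPM, against 4267 and 3165 CPM in Dcn-high members. The share of free RNA in the members' Inmt counts was not tested.

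Complement genes were higher in the adult members. Of 6 measured in air, 5 were past 2-fold higher and none lower (median 2.04), and of 7 after hyperoxia, 6 were higher and none lower (median 1.62), where 17.0% and 23.7% of all genes were higher. Serping1, the inhibitor of C1, was at 1156, 745, 2321 and 2292 CPM. C7, of the membrane attack complex, was at 25.8, 0, 917 and 981 CPM. C3, the central component, had no count in air at pnd7, 1178 CPM in air at pnd60 (30 of 40 members) and 1037 CPM after hyperoxia at pnd60 (42 of 56). Its 615 CPM after hyperoxia at pnd7 came wholly from the member with mesothelial transcripts, and without that member C3 was higher at pnd60 by at least 5.13 in place of 0.75.

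Class I antigen presentation and interferon-response genes were also higher, 5 of 5 in each comparison (medians 2.07 and 1.89), beside 17.0% and 23.7% of all genes. B2m, the light chain of class I molecules, was at 412, 296, 1298 and 1102 CPM. Ly6a, the Sca-1 antigen of adult mesenchymal progenitors, was at 8.59, 50.6, 408 and 318 CPM. In Dcn-high members Ly6a reached 1195 and 540 CPM at pnd60, against 28.8 and 48.2 CPM in Dcn-low members, so it was nearly limited to the former. Leukocyte markers moved the same way after hyperoxia, from 7.23 CPM in sum at pnd7 to 542 CPM at pnd60, and in air they were at 382 and 447 CPM. Cd74, the invariant chain of class II molecules, was at 614, 0, 3502 and 2849 CPM. With every member that held Ptprc, Epcam or Cdh5 counts left out, the log2 ratios in air and after hyperoxia were 2.35 and 1.78 for B2m, against 1.65 and 1.89 with them, and 6.46 and 2.90 for Ly6a, against 5.57 and 2.65. Ifi27l2a was then at 2.98 in air, against 2.07, and had no value after hyperoxia, against 3.53. The count of 5 of 5 after hyperoxia was therefore not measured without those members.

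Antioxidant genes included 5 of 14 higher and 2 lower in air and 4 of 12 higher and 2 lower after hyperoxia. Over all genes 17.0% and 10.3% were higher and lower in air and 23.7% and 14.5% after hyperoxia, so that the shares lower, and the share higher after hyperoxia, lay near the background. Sod3, the extracellular superoxide dismutase, was at 129, 86.8, 1769 and 1417 CPM, and Gstm1, a glutathione transferase, at 81.6, 159, 960 and 953 CPM. Gpx3, the secreted glutathione peroxidase, was at 245, 210, 2406 and 2086 CPM, with a smaller difference in Dcn-high members (2.00 and 1.99) than in lipofibroblast-like cells (5.61 and 5.36).

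Most of the TGF-beta and BMP genes measured were higher at pnd60. In that list, 8 of 12 were higher and 3 lower in air (median 1.56), and 8 of 11 higher and 1 lower after hyperoxia (median 1.50). All genes gave 17.0% higher and 10.3% lower in air and 23.7% and 14.5% after hyperoxia. The type II receptor Tgfbr2 was at 258, 181, 719 and 511 CPM. The BMP antagonist Nbl1 was at 193, 174, 1147 and 1065 CPM. Fstl1, a secreted BMP-binding protein, had the opposite order, at 2156, 1844, 879 and 878 CPM. Igfbp6, which binds IGF2, was at 81.6, 86.8, 1372 and 1071 CPM, in 33 of 40 and 44 of 56 members at pnd60.

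Hhip, the decoy receptor of hedgehog ligands, set the members apart from lipofibroblast-like cells. It was at 112, 231, 941 and 1090 CPM in members and 360, 351, 89.4 and 35.8 CPM in lipofibroblast-like cells. The log2 ratios of pnd60 to pnd7 were therefore 3.07 (2.49 to 3.72) and 2.24 (1.71 to 2.81) in members and -2.01 and -3.30 in the comparison cells. Hhip was detected in 18 of 40 and 23 of 56 adult members, and it is also a myofibroblast marker. Its levels at pnd60 were 1255 and 1324 CPM in Dcn-high and 789 and 806 CPM in Dcn-low members. Single members gave much of these sums: 41.9% and 24.0% of the Dcn-high and 48.9% and 55.6% of the Dcn-low counts, in air and after hyperoxia.

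Imprinted growth genes were lower at pnd60, 3 of 4 in each comparison (medians -1.94 and -1.80), beside 10.3% and 14.5% of all genes. Peg3 was at 687, 962, 109 and 128 CPM and Cdkn1c, the growth-restraining inhibitor p57, at 288, 340, 42.8 and 59.2 CPM. Mest had 155 and 86.8 CPM at pnd7 and no count at pnd60. Midkine, Mdk, a growth factor of developing tissue, was at 782, 1020, 124 and 131 CPM, and Nrep at 468, 390, 77.7 and 59.2 CPM. Both were lower at pnd60 in lipofibroblast-like cells too, by -4.74 and -4.64 for Mdk.

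Immediate early genes, which respond to growth factors and to tissue dissociation, gave unlike counts in the age comparisons, and that unlikeness was not tested. In air, 10 of 15 were higher at pnd60 and none lower (median 1.32), while after hyperoxia 3 of 15 were higher and 2 lower (median 0.23). The shares of all genes were 17.0% higher and 10.3% lower in air and 23.7% and 14.5% after hyperoxia, so the counts after hyperoxia lay at the background. Egr1, for example, was at 812, 1627, 2772 and 2749 CPM. The pnd7 value after hyperoxia was thus already above that in air.

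Hyperoxia against air at pnd7 rested on 8 members against 26. Of 1159 genes, 96 (8.28%) were past 2-fold, 41 (3.54%) higher and 55 (4.75%) lower after hyperoxia, and the median of all genes was 0.07. In Dcn-high members, 4 against 11 cells, 31 of 611 (5.07%) were higher and 42 (6.87%) lower. The 4 include the member that held mesothelial transcripts, with 36624 of their 106225 counts. Without that member, 67 genes in place of 96 were past 2-fold over all members.

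Immediate early genes made up a share of those higher after hyperoxia, 8 of 12 measured with none lower (median 1.17), and 5 of 7 in Dcn-high members (median 1.18), beside 3.54% and 5.07% of all genes. Fos and Jun, the components of AP-1, were at 1448 against 3261 CPM and 1070 against 2451 CPM in air and after hyperoxia. Ier2 was at 159 against 846 CPM and Btg2 at 206 against 730 CPM. All of the 4 Dcn-high members after hyperoxia had Fos, Jun, Ier2 and Egr1 counts, at a median depth of 23908.5 counts per member, against 11057 in air. Without the member with mesothelial transcripts Fos differed by 1.01, Jun by 1.14 and Ier2 by 2.74, against 1.17, 1.20 and 2.41 with it. In lipofibroblast-like cells the differences were 1.20 for Fos, 0.54 for Jun and -0.26 for Ier2. Differences in tissue handling between the libraries cannot be told apart from exposure.

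None of the 4 fibrillar collagen genes besides Col1a2 was past 2-fold between exposures at pnd7 (median -0.39, and -0.76 in Dcn-high members), and Col1a1 was at 23934 after hyperoxia against 32274 CPM in air. None of 12 elastic fibre genes was past 2-fold, 2 of 13 genes of collagen processing were lower, and 1 of 15 basement membrane genes was higher and 1 lower. Over all genes 3.54% were higher and 4.75% lower. In Dcn-high members the counts were 2 of 9 lower for elastic fibre, 2 of 10 lower for collagen processing, and 1 of 13 higher and 5 lower for basement membrane genes, beside 5.07% higher and 6.87% lower of all genes. These Dcn-high counts include the member with mesothelial transcripts. Ogn, osteoglycin, was lower after hyperoxia, at 311 against 1052 CPM (-1.76, -2.26 to -1.29), also in Dcn-high members (-2.28). Vegfd, a lymphangiogenic growth factor, was at 130 against 455 CPM and Lpl, lipoprotein lipase, at 43.4 against 425 CPM, and Lpl was lower by a like amount in lipofibroblast-like cells (-3.66). Tcf21, a transcription factor of lung mesenchyme, was at 296 against 631 CPM. The 4 red blood cell genes measured were all lower after hyperoxia, in step with the hemoglobin-rich members of the air library: Hba-a2, which shares sequence with Hba-a1, differed by -5.03 in all members and by -1.15 in Dcn-high members.

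Few genes were past 2-fold between the members of hyperoxia-exposed and air-exposed mice at pnd60. Of 2167 genes, 49 (2.26%) were past 2-fold, 21 (0.969%) higher and 28 (1.29%) lower after hyperoxia, and the median of all genes was -0.01. Dcn-high members gave 22 (2.68%) higher and 16 (1.95%) lower of 820. None of the 4 fibrillar collagen genes besides Col1a2 was past 2-fold (median 0.40, and 0.20 in Dcn-high members), no complement gene of 7, no TGF-beta and BMP gene of 11 and no immediate early gene of 15. The share of Dcn-high cells among members was 42.5% in air and 60.7% after hyperoxia, so values over all members mixed the groups in different proportions at pnd60.

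**Figure D5:**
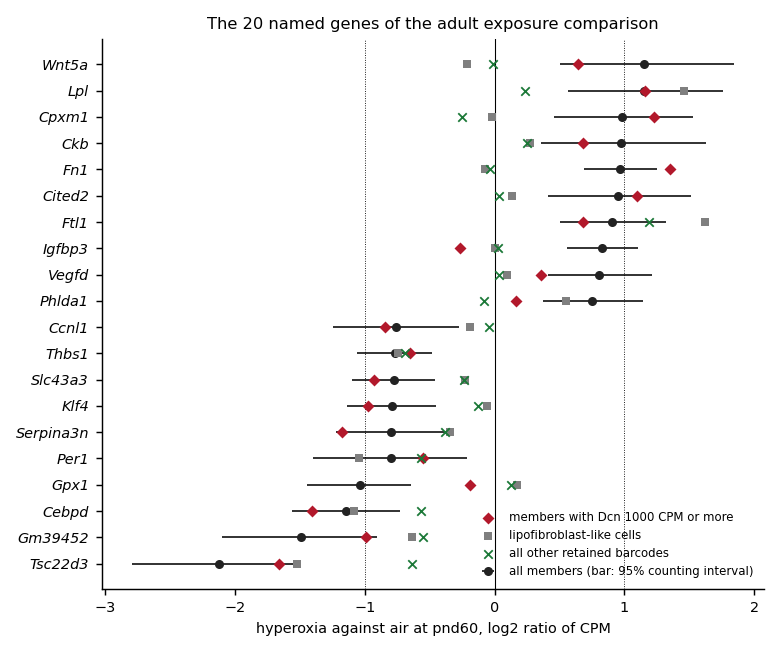
Log2 ratio of CPM after hyperoxia to air at pnd60 (x axis, with 95% counting intervals) for 20 genes, the 10 highest and the 10 lowest (y axis), in all members, in Dcn-high members, in lipofibroblast-like cells and in all other retained barcodes. Tsc22d3 and Cebpd lie below -1 in the first 3 sets, and Fn1 lies near 1 in members and near 0 in lipofibroblast-like cells.

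Tsc22d3 and Cebpd were past 2-fold lower after hyperoxia at pnd60. Tsc22d3, the glucocorticoid-induced leucine zipper GILZ, was at 365 CPM in air (27 of 40 members) and 84.1 CPM after hyperoxia (18 of 56), a difference of -2.12 (-2.79 to -1.49). Cebpd, a transcription factor of the C/EBP family, was at 536 against 243 CPM (-1.14, -1.56 to -0.73). Per1, a clock gene, was at 233 against 134 CPM (-0.80, -1.40 to -0.21), which is not past 2-fold. In Dcn-high members Tsc22d3 differed by -1.66 (-2.97 to -0.41), Cebpd by -1.41 (-2.03 to -0.80) and Per1 by -0.55 (-1.53 to 0.47), the last with an interval that held 0. The differences in lipofibroblast-like cells were -1.52, -1.08 and -1.04, and in all other retained barcodes -0.63, -0.56 and -0.57, so the direction was shared.

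Fn1, fibronectin, was at 579 CPM in air and 1133 CPM after hyperoxia (0.97, 0.69 to 1.25), with 1.35 in Dcn-high members, -0.07 in lipofibroblast-like cells and -0.03 in the other barcodes. Wnt5a, a non-canonical Wnt ligand, was at 105 against 234 CPM (1.15, 0.50 to 1.85). It differed by 0.64 in Dcn-high members (-0.25 to 1.62, an interval that held 0) and by -0.21 in lipofibroblast-like cells. Cpxm1, a carboxypeptidase-like collagen-binding protein, was at 167 against 330 CPM (0.98, and 1.22 in Dcn-high members).

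Lpl was at 132 against 293 CPM (1.15, 0.57 to 1.76), and lipofibroblast-like cells had the same direction (1.46). Its order was opposite at pnd7. Ftl1, ferritin light chain, was at 288 against 539 CPM (0.90) and was higher in lipofibroblast-like cells (1.62) and in all other barcodes (1.19). Igfbp3 was at 630 against 1118 CPM (0.83) in all members, but at 1040 against 864 CPM (-0.27) in Dcn-high members, so its difference lay in Dcn-low members (432 against 1426 CPM). Mmp3 was at 175 against 548 CPM (1.65, 1.17 to 2.15), with 8 of 40 and 18 of 56 members showing it. Lum, lumican, was at 66.1 against 265 CPM (2.00, 1.24 to 2.85), found in 3 of 40 and 15 of 56 members. For Mmp3 and Lum, the part of the unequal mix of Dcn-high and Dcn-low members in the difference was not tested.

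Thbs1, thrombospondin 1, was lower after hyperoxia at 917 against 539 CPM (-0.77), with -0.65 in Dcn-high and -0.75 in lipofibroblast-like cells. Klf4 was at 669 against 386 CPM (-0.79) in members and differed by -0.06 in lipofibroblast-like cells. Gpx1 (-1.04) was lower in all members and differed by -0.19 in Dcn-high members. Sftpc and Sftpa1 were past 2-fold higher through the 1 member with 681 Sftpc counts.

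Most senescence marks, the subject of the study, were too sparse in these cells to compare. Of 23 p53 targets and senescence marks, 6 could be set against lipofibroblast-like cells, and none was past 2-fold in all libraries (median 0.02). With Dcn-high members alone 1 of 6, Hmgb2, was past 2-fold lower in all libraries, beside 4.41% of all genes. Between exposures none of 3 measured was past 2-fold at pnd7 and 1 of 4 at pnd60, Hmgb2, which was lower after hyperoxia, with 69.0% of its counts in air from 1 member. With age B2m was higher and Cdkn1c lower among 4 measured in air, and Phlda3 and B2m were higher and Cdkn1c lower among 3 after hyperoxia. Of 22 secretory genes that the study names, a choice not independent of these samples, none of 3 and none of 5 was past 2-fold between exposures at pnd7 and pnd60. With age, Mmp2 and Cxcl14 were higher and Mmp14 and Mmp23 lower at pnd60 among 4 measured in each comparison. With 27.3% of all genes past 2-fold with age in air and 38.2% after hyperoxia, these counts on 3 or 4 genes say little about either list. Cdkn1a, encoding p21, was detected in 1 of 26, 0 of 8, 4 of 40 and 2 of 56 members, at 12.9, 0, 50.5 and 21.8 CPM, and in 11.2%, 17.4%, 10.8% and 9.01% of leukocytes. None of the shares of members was above that of leukocytes in the same library. The paper reports raised p21 expression in C12FDG-sorted cells, most of them macrophages. Leukocytes therefore give no free RNA background for Cdkn1a, and whether the members' counts were background was not tested. Cdkn2a, encoding p16, had 1 count in all members. Plaur, the urokinase receptor, was at 55.8, 7.23, 19.4 and 15.6 CPM and Lmnb1, the nuclear lamina protein lost in senescent cells, at 12.9, 28.9, 35.0 and 18.7 CPM, from 2 to 5 cells of each library.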

How the data were processed

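For 5 libraries the authors deposited unnormalized UMI counts of each gene in each barcode, made with Cell Ranger (software version 3.1.0 per the file headers) and the mm10 genome per the labels. Seurat 3.2.1 is named in the submitters' notes. The limits of the study's methods on genes and mitochondrial counts had not been applied to the files and were applied here. Mitochondrial features were 2. Some genes have a further feature with a numbered name, and these were not added. Counts of a gene were added up over a library's members and scaled to CPM by the members' own total. Intervals were exact Poisson for CPM, exact Clopper-Pearson for shares and binomial for log2 ratios. A sum of 0 counts was set to 3 counts. Retained barcodes held medians of 3915, 7119.5, 2168 and 2315.5 counts (air and hyperoxia at pnd7, then at pnd60), which sets the precision.

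The members, 35 gene lists and thresholds were chosen with earlier results of these data known. Genes were named as the 10 highest and 10 lowest ratios among genes with 100 or more counts, in 10 or more members and with no barcode over 25% of a group's counts, up to 4 most abundant and 4 most different genes of each list, the markers, the genes of the rule and the senescence marks. Other genes, including those carried by 1 member, were chosen after their values were seen. Doublets called by Scrublet were kept and left out in an alternative. Results were recomputed under 11 other settings, and under 3 that were chosen after seeing the data. Intervals were tested on simulated data: of 200 changed genes in each comparison, the true ratio was within the interval for 92% in 1169 genes simulated for exposure at pnd7, 97.5% in 2172 for exposure at pnd60, 98.5% in 1776 for age in air and 95.5% in 1623 for age after hyperoxia. The intervals cover counting error only, and spread between members or between mice lies outside them. Python 3.11.15, numpy 2.4.6, scipy 1.17.1, pandas 2.3.3 and scanpy 1.11.5 were used.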

Additional observations from a re-analysis of the deposited data

How the results depend on the processing

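No paired analysis was possible because there was a single library for each condition. The counts of genes past 2-fold were 96 (hyperoxia at pnd7), 49 (hyperoxia at pnd60), 482 (age in air), 616 (age after hyperoxia) and 79 (against lipofibroblast-like cells), and in this order they depended on the minimum count: 33, 11, 228, 288 and 49 with at least 100 counts, 438, 403, 1195, 1526 and 133 with at least 20, and 4638, 4248, 5534, 6471 and 705 with no minimum. Thinning members to 1000 counts left 13, 3, 78, 90 and 11. Requiring all 3 markers left 23, 129 and 196 for hyperoxia at pnd60 and age in air and after hyperoxia, no value at pnd7, and shares of 0.173%, 0.161%, 0.296% and 0.442%. Dcn-high members alone, chosen after seeing the data, gave 73 and 38 for hyperoxia at pnd7 and pnd60, 247 and 357 for age and 136 against lipofibroblast-like cells. Their shares were 0.477% (air pnd7), 0.321% (hyperoxia pnd7), 0.387% (air pnd60) and 0.715% (hyperoxia pnd60). Thinning before the rule gave shares of 0.241% (hyperoxia pnd7), 0.413% (air pnd60) and 0.701% (hyperoxia pnd60). The mean of CPM per cell gave 78 genes for hyperoxia at pnd60.

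Of 1032 ratios tried under up to 14 alternatives, 12272 values in all, 10 past 2-fold reversed. The minimum-count settings gave 737, 1032 and 1032 of those values and cannot change a ratio. Many others were scored as moved without reversing: 252 against 471 unmoved in Dcn-high members, and 208 against 196 with all 3 markers. With the mean of CPM per cell 205 moved and 820 did not, and with thinned members 161 and 102. Taking the mean of CPM per cell reversed Abca8a (0.38), Actn1 (0.25), Htra1 (-0.30), Igfbp3 (0.52) and Vcam1 (0.42) for hyperoxia at pnd7, Stmn1 (-0.73) for age in air and Ablim3 (-0.20) for age after hyperoxia. Leaving out the member with mesothelial transcripts, also chosen after seeing the data, reversed Aebp1 at pnd7 (-0.27). Sftpc for age after hyperoxia reversed without members with Ptprc, Epcam or Cdh5 counts (-0.042) and without members rich in hemoglobin, surfactant and secretoglobin genes (-0.10), the latter chosen after seeing the data. Beyond the settings' own construction, the cause was not tested. Depth limits how many genes could be compared in each comparison, and the exposure comparison at pnd7 has only 8 members after hyperoxia.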
